A study of Mus musculus with 2 samples.

Results

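The cytosines described here are autosomal CHH sites of replicate 2, a mouse dentate gyrus library, that were read as methylated in 30% to 70% of 30 to 100 bisulfite reads. They are called members. They numbered 12141 of 6165525 autosomal CHH sites with the same depth, or 0.197%. They were selected on their measured level and read depth in replicate 2, so those levels are given as a description and nothing is tested on them. CHH stands for a cytosine that is followed by a pair of bases other than G. The series holds 2 bisulfite libraries of 1 group, replicate 2 and replicate 1. Both came from micro-dissected dentate gyri of male mice of the C57Black6 strain, aged 8 to 10 weeks, labelled WT, and no treatment is named. The design text calls them biological replicates, and how many animals went into each is not given in the sources used here.

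Bisulfite turns unmethylated cytosine into uracil, which sequencing shows as thymine. Methylated cytosine resists the reaction and keeps its letter. The dentate gyrus holds granule neurons among other cells, so a level is an average over the cells of the tissue, and a level near the middle does not say in which cells the cytosine is methylated. Methylcytosine and hydroxymethylcytosine are not told apart by bisulfite. In mammals most methylation lies at CpG, where maintenance enzymes copy it after replication. In the brain, neurons also gain methylation outside CpG after birth. It is written mainly by the de novo methyltransferase DNMT3A and falls mostly on cytosines followed by A. A cytosine followed by another cytosine is a poor substrate, and bisulfite conversion that fails along a stretch of DNA leaves such cytosines unconverted as well. No sequence of the mm9 build was used here. The bases near a member are therefore known only where they are themselves listed cytosines of the same strand, and positions are counted from the member, with plus numbers running 3′. A cytosine with too few reads for its table is not listed.

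In all contexts together the tables of replicate 2 held 27435342 cytosines and 791200717 read calls, against 172020 cytosines and 30594981 read calls in replicate 1. The CHH table of replicate 2 starts at 30 reads and the other tables start at 20. Members had a median of 32 reads, the same as all CHH sites of 30 to 100 reads, and 27.3% of members against 23.6% of all such sites were at exactly 30 reads. A listed position with more than 100 reads lay within 1000 bp of 0.486% of members and of 1.21% of all sites of the same depth.

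Methylation of this size was rare among CHH sites. Of all sites of the same depth, 86.7% had no methylated read, and their read-weighted level was 0.889%. The members carried 0.195% of the reads at these sites and 8.77% of the methylated reads. Most members lay near the lower limit of the rule, with a median level of 36.7% and quartiles of 32.4% and 45.2%. By level, 7260 sites were at 30% to under 40%, 2821 at 40% to under 50%, 1407 at 50% to under 60% and 653 at 60% to 70%. At both limits sites lay close on either side. There were 2235 sites at 30% to under 32%, with 877 of them at exactly 30%, and 2040 sites at 28% to under 30%, the highest of those at 29.8%. At the upper limit, 56 sites lay at 68% to under 70%, 19 at exactly 70% and 66 above 70% and up to 72%, the lowest of those at 70.3%. Beyond 70% there were 338 sites, of which 1 was methylated in all reads. At 32 reads the level of 1 site is known only roughly. The member on chromosome 11 at position 110763412 (mm9), which is as deep as the rule allows, was methylated in 35 of 100 reads, with an exact 95% interval of 25.7% to 45.2%.

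Members were spread over all 19 autosomes. Their share of CHH sites of the same depth was between 0.173% on chromosome 17 and 0.235% on chromosome 9, with a mean of 0.198% ± 0.0174 (SD over 19 autosomes). They numbered 974 on chromosome 1 and 286 on chromosome 19, which listed 548485 and 130353 sites of the same depth.

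The base directly after a member was almost never a listed cytosine, and the base after that usually was. A cytosine was listed at +1 of 163 members, or 1.34% (exact 95% interval 1.15% to 1.56%), against 21.9% of all CHH sites of the same depth. At +2 a cytosine was listed for 7995 members, or 65.9% (65.0% to 66.7%), against 20.3% of all sites. Most of these +2 cytosines were themselves CHH, in 60.4% of members and 14.2% of all sites. A CHG at +2 was as frequent for members as for all sites, at 5.19% and 5.21%, and a CpG at +2 was found for 28 members, or 0.231%, against 0.819% of all sites. At 33.1% of members neither position was a listed cytosine, against 61.9% of all sites. Bases upstream differed less. A cytosine at -1 was listed for 13.4% of members and 16.7% of all sites, and a cytosine at -2 for 20.7% and 14.7%. The intervals here and elsewhere are exact Clopper-Pearson intervals and cover counting error only, since no molecular identifiers tell PCR copies apart, and sites of 1 library are not replicates.

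The same bases changed step by step with the level of the CHH site, on both sides of the lower limit. A cytosine at +1 was listed for 23.4% of sites with no methylated read, for 13.5% of sites above 0% and under 10%, for 5.84% at 10% to under 20%, for 2.45% at 20% to under 30% and for 1.29% at 30% to under 40%. Within the members it stayed between 1.29% and 1.63% over the bands of 10 points. A cytosine at +2 was listed for 18.5%, 28.7%, 42.6% and 55.8% of sites in the bands under 30%. Within the members it was listed for 64.3%, 67.1%, 69.2% and 70.3% from the lowest to the highest band, and for 75.1% of the sites above 70%. The intervals of neighbouring member bands overlap, while that of 30% to under 40% lies below those of the member bands from 50% upwards. These shares use only whether a cytosine is listed, not its level.

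**Figure D1:**
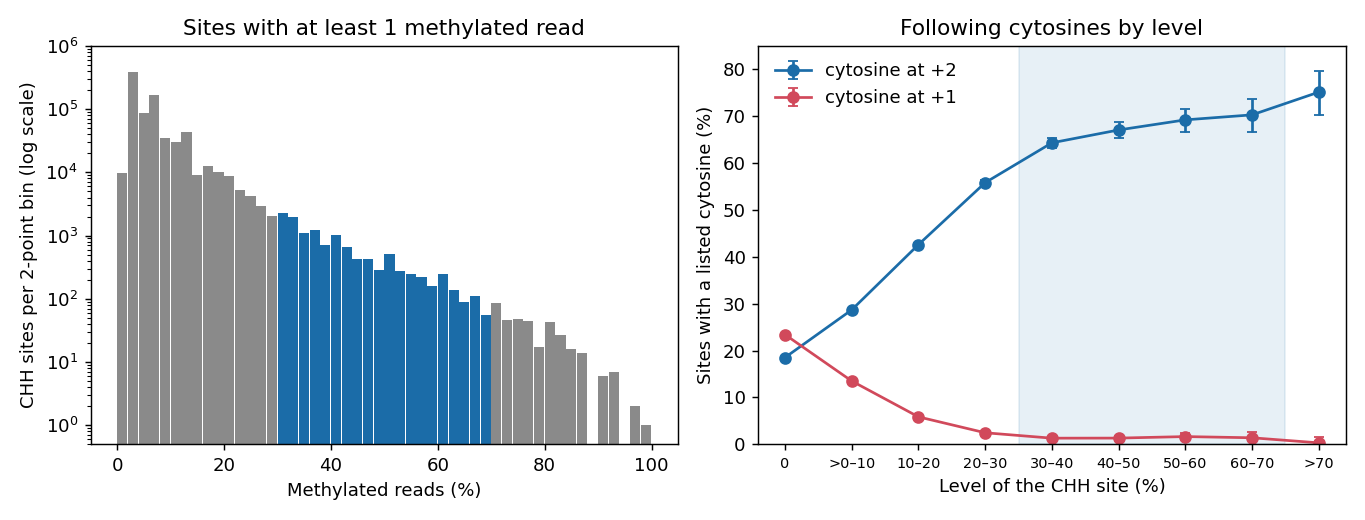
Left, the number of autosomal CHH sites of 30 to 100 reads in replicate 2 (log scale) by percent of methylated reads, for sites with at least 1 methylated read; members are blue, and the 19 sites at exactly 70% fall in the next grey bar. Right, the percent of sites with a listed cytosine at +2 (blue) and +1 (red) by level of the site, with exact 95% intervals; the shaded bands are the members, where +2 cytosines were listed for 64.3% to 70.3% of sites and +1 cytosines for 1.29% to 1.63%.

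Farther along the strand, members also had more listed cytosines at particular distances. At +3 a cytosine was listed for 31.4% of members and 14.7% of all sites of the same depth. At +5 the shares were 28.5% and 13.96%, at +11 they were 21.1% and 12.5%, and at +8 they were 19.7% and 13.6%. The positions between them ranged widely. At +4 the shares were 19.8% and 14.4%, and at +12 they were 17.3% and 12.7%, while they were 14.9% and 14.1% at +6 and 13.3% and 13.6% at +7. Upstream, beyond -2, the largest ratio within 14 bp was at -3, with 17.6% of members and 14.4% of all sites. The excess at +5 did not depend on a cytosine at +2: a cytosine at +5 was listed for 27.7% of members with a listed +2 cytosine and for 30% of members without one, against 14.6% and 13.8% among all sites. At +3 the shares were 33.8% of members with a listed +2 cytosine and 26.6% of members without one, against 15.9% and 14.4% among all sites.

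**Figure D2:**
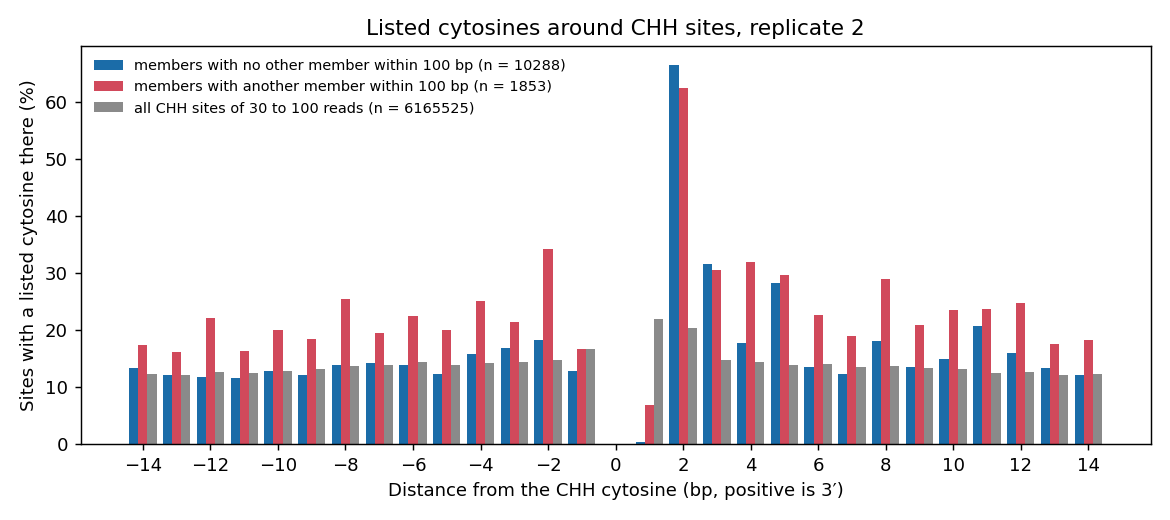
Percent of CHH sites of replicate 2 that have a listed cytosine at each distance of 14 bp or less, for members without (blue) and with (red) another member within 100 bp and for all autosomal CHH sites of the same depth (grey). Members without another member nearby were at 66.5% at +2 and 0.360% at +1, against 20.3% and 21.9% of all sites.

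Most members stood alone, but members lay near each other far more often than CHH sites of the same depth in general. Another member lay within 100 bp of 1853 members, or 15.3% (14.6% to 15.9%), and within 10 bp of 1215 members, or 10.01%. Read against coverage, 5.76% of CHH sites of the same depth whose nearest other member was 1 to 2 bp away were members themselves. That share was 2.57% at 6 to 10 bp, 0.769% at 21 to 50 bp, 0.507% at over 100 and up to 200 bp and 0.322% at over 1000 and up to 10000 bp, against 0.197% over all sites. It was back at 0.198% where the nearest member was over 10000 and up to 100000 bp away. Chained at gaps of up to 100 bp, the members formed 10288 single sites, 642 pairs, 81 clusters of 3 or 4 members and 40 clusters of 5 or more, which held 311 members. Of the pairs, 172 were exactly 2 bp apart. CHH sites of the same depth were listed 2 bp after 7334 members and 1 bp after 136 members. Of these, 4.01% and 61.03% were members too.

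The size of the group that a member belonged to went with the bases around it. Single members and pairs both had few cytosines at +1 and many at +2. A cytosine at +1 was listed for 37 single members (0.360%, 0.253% to 0.495%) and 13 members in pairs (1.01%, 0.540% to 1.73%), and a cytosine at +2 for 66.5% and 68.5%. Members of clusters of 5 or more differed: 32.5% of the 311 had a listed cytosine at +1 (27.3% to 37.99%), above the 21.9% of all sites, and 36.7% had one at +2. Clusters of 3 or 4 lay between, with 4.65% and 63.6%. Listed cytosines within 20 bp numbered 12.7 per member in clusters of 5 or more and 9.27 in clusters of 3 or 4. In pairs they numbered 7.39 and at single members 6.01, against 5.33 for all sites of the same depth. The grouping partly fixes these counts and the shares at +1, since members are themselves listed cytosines. Over all members, 83 of the 163 cytosines listed at +1 were members too. By definition a single member has none there. How much of the rise with group size remains apart from this was not tested. The median level was much the same, 40.6% in clusters of 5 or more and 36.7% at single members, and the median depth was 36 and 32 reads. Deep members were more often clustered. Of the 86 members with 60 to 100 reads, 67.4% had another member within 100 bp and 20.9% had a listed cytosine at +1, against 14.02% and 1.02% of the 11447 members with 30 to 39 reads.

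Failed conversion was checked at the neighbours within 100 bp that are themselves followed by a listed cytosine. Members were left out of the neighbours, each neighbour was counted once, and neighbours had 30 to 100 reads. The level of CHG and CHH neighbours followed by a listed cytosine was 0.679% around members (0.662% to 0.696%), against 0.353% around all CHH sites of the same depth, and was higher around members on all 19 autosomes. With neighbours of 40 to 100 reads the level was 1.54% around members, against 0.384% around all sites. The mitochondrial CHG and CHH level of the library, taken as its rate of failed conversion, was 0.368%. The level differed with the size of the group, which the choice partly fixes, since a single member is one with no CHH neighbour at 30% to 70% within 100 bp. Around single members it was 0.475% (0.460% to 0.491%), while it was 1.15% around pairs, 3.32% around clusters of 3 or 4 and 6.22% around clusters of 5 or more (5.81% to 6.65%). With neighbours of 40 to 100 reads it was 0.743% around single members (0.689% to 0.801%). Neighbours not followed by a listed cytosine were at 1.965% around single members, 3.35% around pairs, 4.28% around clusters of 3 or 4 and 7.55% around clusters of 5 or more, against 0.910% around all sites. The CHH cytosine directly before a member, where it was not a member itself, was at 0.891% over 1536 sites (0.812% to 0.977%), against 0.353% for CHH sites directly before any CHH site of the same depth. It was at 0.428% before single members (1312 sites, 0.369% to 0.494%) and at 3.53% before clustered members (224 sites, 3.12% to 3.97%). Over the 8060 single members that had neighbours followed by a listed cytosine, 78.5% had no methylated read at any of them. Among all sites of the same depth with such neighbours it was 80.1%. A level of 20% or more was found at 4 of these single members, or 0.0496%. Of the 1602 members with another member within 100 bp that had such neighbours, 85 had a level of 20% or more, which is 5.31%. Among all sites of the same depth that share was 0.0144%. For these counts of sites, each site was taken with all its neighbours. Members of 1 cluster therefore share neighbours and are not separate counts.

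Inside the 40 clusters of 5 or more members the cytosines were at a like level whatever followed them. These clusters lay on 18 autosomes, spanned 8 to 99 bp with a median of 22 bp, and held 43.2 listed cytosines per 100 bp. Of the 467 CHG and CHH sites listed inside them, 311 were members. The 144 sites followed by a listed cytosine were at 34.7% (33.5% to 35.9%) and the 323 others at 33.97% (33.2% to 34.8%). Because the members set the edges of the clusters, levels inside are high by choice in replicate 2. Outside the edges, where no site is a member, levels declined with distance up to 60 bp. They were 19.96% at followed and 19.4% at other CHG and CHH sites within 10 bp, 9.94% and 8.79% at 11 to 20 bp, 2.34% and 1.75% at 21 to 40 bp, and 1.16% and 1.03% at 41 to 60 bp. At 61 to 100 bp they were again higher, at 1.92% and 1.81%. Replicate 1, which did not enter the choice, had listed CHG or CHH sites inside 23 of these clusters. It gave 39.02% at 81 followed sites and 39.8% at 155 others inside, 26.99% and 27.6% within 10 bp, 1.54% and 1.05% at 41 to 60 bp, and 0.807% and 1.33% at 61 to 100 bp. CpG sites inside or within 100 bp of these clusters were few, 24 in all, and at 57.0%. Members count among the listed cytosines, so the dense listing is partly fixed by the choice of clusters. What else these clusters have in common was not tested, and genes at these places were not identified here.

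The largest cluster held 19 members in 44 bp, at chr10:125529321-125529364 (mm9). All 22 cytosines listed there were CHH, 10 of the members were followed by a listed cytosine, and the members were between 30% and 46.9% in replicate 2. The same 19 positions were between 24.2% and 67.9% in replicate 1, with 25 to 33 reads each. Pooled over them the level was 37.1% in replicate 2 and 45.5% in replicate 1, so the cluster was present in both libraries. The next, at chr19:29473819-29473848, had 12 members among 12 listed CHH sites, at 30.8% to 56.4% of 43 to 57 reads. None of its 12 members had a listed cytosine at +2, and none was listed in replicate 1. At chr16:18162674-18162695, 12 members were at 36.4% to 64.1%, and the 1 CHG site in the cluster was at 63.4%. The 8 of these members listed in replicate 1 were at 53.8% in replicate 2 and 49.1% in replicate 1.

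At chr4:70174843-70174863, 11 members were at 31.1% to 41.5% in replicate 2 and at 4.35% to 63.3% in replicate 1. The libraries differed most in its last bases. The member 3 bp from the first was at 41.5% in replicate 2 and 63.3% in replicate 1, whereas the last member, 20 bp from the first, was at 32.3% and 4.35%. Upstream of this cluster the levels climbed towards it, with 9.38% in replicate 2 and 9.38% in replicate 1 at 15 bp before the first member, 22.2% and 26.8% at 9 bp before it, and 33.3% and 47.9% at the CHG site 4 bp before it. The fifth of the named clusters, at chr12:86504218-86504244, held 11 members at 30% to 58.3% and 1 CHG site at 61.1%, and its members were not listed in replicate 1.

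**Figure D3:**
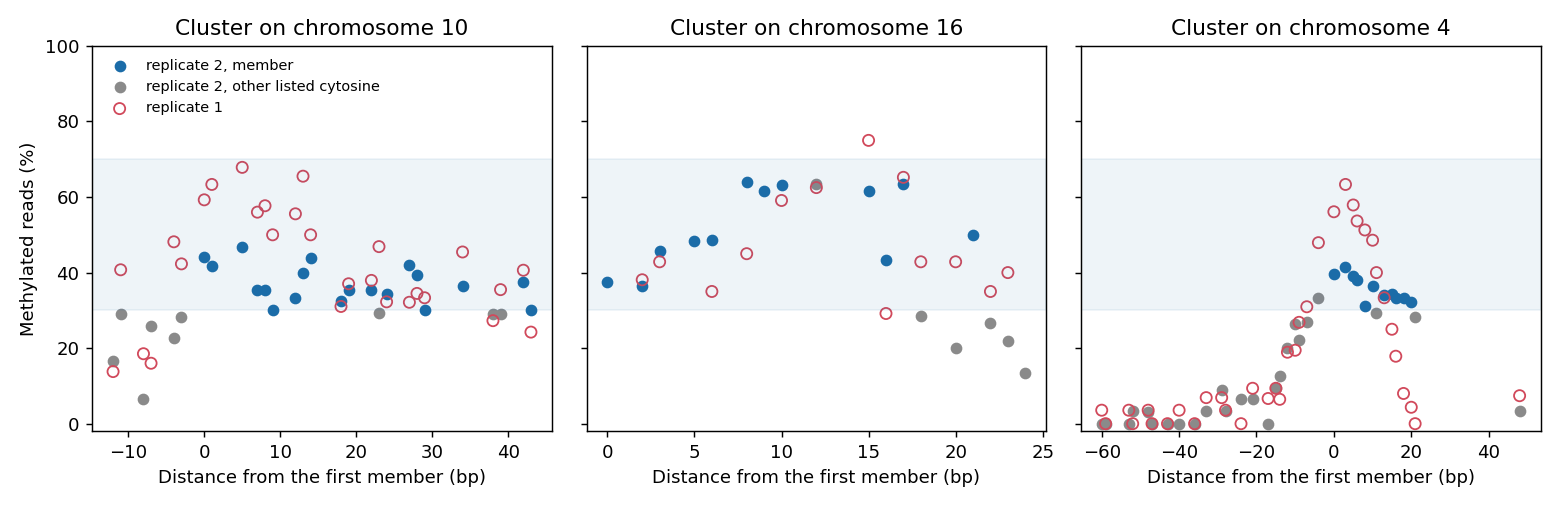
Percent of methylated reads at listed cytosines in and around the clusters on chromosomes 10, 16 and 4, by distance in bp from the first member; filled blue points are members in replicate 2, grey points other listed cytosines in replicate 2, open red circles the same positions in replicate 1, and the shaded band is 30% to 70%. On chromosome 4 the levels climb towards the members over about 15 bp, from 9.38% in both libraries, and in replicate 1 they fall to 4.35% at the last member.

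Around members that stood alone, methylation outside CpG was higher than around other CHH sites. CHH neighbours within 100 bp of members with no other member in that window were at 1.67% (1.66% to 1.68%), against 0.815% around all sites of the same depth, a ratio of 2.05. CHG neighbours were at 1.67% (1.64% to 1.70%) against 0.788%, a ratio of 2.12. Over autosomes the mean was 1.68% ± 0.132 for CHH and 1.69% ± 0.165 for CHG around such members, against 0.818% ± 0.037 and 0.791% ± 0.035 around all sites (SD over 19 autosomes), and both were higher around these members on all 19. With clustered members included, the CHH level was 1.85% and the CHG level 1.83%. Most neighbours still had no methylated read: 20.6% of CHH neighbours of members standing alone had at least 1, against 13.2% around all sites. Neighbours lie on many of the same reads as the member, so these levels are not independent measurements.

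The neighbour levels declined with distance but stayed above those of all sites through 100 bp. CHH neighbours of members standing alone were at 2.37% at 1 to 10 bp, 1.63% at 11 to 20 bp, 1.27% at 41 to 60 bp and 1.09% at 81 to 100 bp, against 0.892%, 0.822%, 0.798% and 0.735% around all sites. For CHG they were at 2.52% at 1 to 10 bp and 1.01% at 81 to 100 bp, against 0.847% and 0.702%. Single positions within 14 bp were uneven. The CHH cytosine at -2, which the member itself places 2 bases before a cytosine, was at 5.58% (5.40% to 5.76%) before members standing alone and at 1.72% before all sites. Farther out the ratio to all sites was highest on both sides at 8 and 9 bp. It was 3.75 at -8, 3.27 at -9, 3.29 at +8 and 3.47 at +9, with levels of 3.26%, 2.75%, 2.72% and 2.76% against 0.869%, 0.841%, 0.828% and 0.794%. At -4 and +4 it was 2.10 and 1.76, and at -13 and +13 it was 2.03 and 1.77. At +1 only 23 CHH and 14 CHG neighbours were listed. Among the other positions, CHG neighbours had their highest ratio at -9, where it was 5.42, with 4.47% (4.04% to 4.94%) of reads methylated over 254 sites, against 0.826%. On the 3′ side, CHG ratios were 4.57 at +2, 3.04 at +6, 3.28 at +7, 3.03 at +8 and 2.88 at +9.

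**Figure D4:**
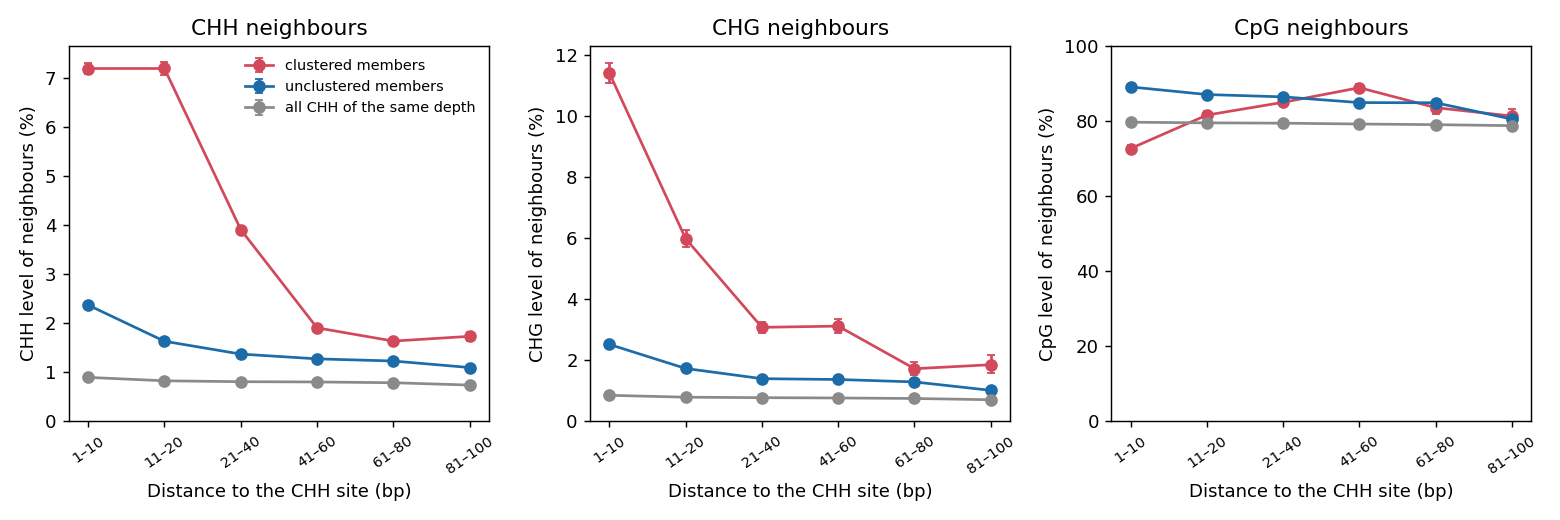
Read-weighted levels of CHH, CHG and CpG neighbours by distance in bp from members with another member within 100 bp (red), members without one (blue) and all autosomal CHH sites of the same depth (grey), with exact 95% intervals; neighbours have 30 to 100 reads and are not members. CHH neighbours of blue members decline from 2.37% to 1.09%, those of all sites from 0.892% to 0.735%.

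CpG sites near members were more fully methylated than CpG sites near other CHH sites, but not beside the deepest members. The 3935 CpG sites within 100 bp of a member were at 86.3% (86.1% to 86.5%), against 79.8% for the CpG sites within 100 bp of any CHH site of the same depth, a difference of 6.48 percentage points. The mean over autosomes was 86.6% ± 1.94 against 79.8% ± 0.816 (SD over 19 autosomes), and it was higher around members on all 19. Unmethylated CpG sites were rarer near members, where 1.25% of CpG sites were under 30%, against 6.06% near all sites. CpG sites at 30% to 70% were rarer too, at 11.6% against 16.3%, so the middle level of the member was not shared by most CpG sites beside it. Members and all sites had a CpG of this depth within 100 bp about equally often, at 27.6% and 27.2%. The difference in level depended on depth. With neighbours of 40 to 100 reads, CpG sites were at 78.5% around members and 75.7% around all sites. The next levels count each pair of a site and a CpG. They were 87.0% for members of 30 to 39 reads and 80.3% for all sites of that depth. At 40 to 59 reads they were 78.3% and 76.6%. At 60 to 100 reads they were 54.7% (59 pairs) and 71.1%. Next to clustered members, at 1 to 10 bp, CpG sites were lower, at 72.7% over 198 pairs of a member and a CpG, while next to members standing alone they were at 89.1% over 769 pairs and next to all sites at 79.7%.

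Replicate 1 is the library that the rule did not use, and it listed 249 of the members, or 2.05%, against 0.516% of all CHH sites of the same depth. Clustered members were listed far more often than members standing alone: 214 of 1853, or 11.5%, against 35 of 10288, or 0.340%. The repeat in replicate 1 therefore rests mostly on clusters. The 249 positions fell into 84 groups at gaps of up to 100 bp. Their levels in replicate 1 ranged from 0% to 100%, with a median of 43.1% and quartiles of 33.3% and 54.5%. Of the 249, 205 were again at 30% to 70%. Of all 31791 CHH sites of the same depth listed in replicate 1, members included, 422 were at 30% to 70% there, or 1.33%. Pooled over reads, the 249 members were at 40.02% in replicate 2 and 44.6% in replicate 1. The 35 members standing alone had a median of 42.5% in replicate 1, with 29 of them at 30% to 70%, and the pooled level was 42.4% in replicate 2 and 44.2% in replicate 1. Of these 35, 7 lay in the first 100 kb of chromosome 9 with listed sites, at 45.1% in replicate 2 and 49.7% in replicate 1. The other 28 were at 41.7% in replicate 2 and 42.5% in replicate 1.

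By a one-sided exact binomial test against the mitochondrial CHG and CHH rate of replicate 1 (0.418%), 244 of the 249 member positions were called methylated in replicate 1, at a Benjamini-Hochberg adjusted p of 0.01 over all 122283 nuclear CHH sites of that library. The test called 3.34% of all those sites and 3.65% of the 31791 with 30 to 100 reads in replicate 2. Among members standing alone 34 of 35 were called. The 5 not called were at 0% to 10% of 20 to 25 reads. The member on chromosome 6 at position 55280162 was methylated in 10 of 31 reads in replicate 2 and in 0 of 21 reads in replicate 1. The others were positions 70174861 and 70174863 of chromosome 4, in the last bases of the named cluster, position 179809779 of chromosome 2 and position 89799837 of chromosome 10. These 5 are named because they are few, after their values were seen.

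The level in replicate 1 followed the level in replicate 2 beyond the members. Sites with no methylated read in replicate 2 were at 0.658% in replicate 1, those at 10% to under 20% were at 17.0%, and those at 20% to under 30% were at 32.2%. Members at 30% to under 40% were at 41.8% in replicate 1 (156 sites), those at 40% to under 50% at 48.7% (54 sites), those at 50% to under 60% at 50.5% (27 sites) and those at 60% to 70% at 56.8% (12 sites). The intervals of the last 3 bands overlap.

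By Fisher's exact test, 2 of the 249 member positions differed between the libraries at a Benjamini-Hochberg adjusted p of 0.05. Adjustment was over all 72984 shared nuclear CHH sites, of which 0.345% were called. The unadjusted exact p was under 0.05 at 28 of the 249. Among the 31791 shared autosomal sites of 30 to 100 reads in replicate 2, members included, it was under 0.05 at 464. After adjustment 25 of these 31791 sites were called. The 2 called member positions were higher in replicate 1, as were nearly all calls among the shared sites (0.0137% of sites higher in replicate 2 and 0.332% higher in replicate 1). The first, on chromosome 3 at position 20612377, had 30 methylated of 89 reads in replicate 2, against 106 of 161 in replicate 1, with an adjusted exact p of 0.000808. The other, on chromosome 17 at position 43927353, had 13 methylated of 39 reads in replicate 2, against 28 of 35 in replicate 1, with an adjusted exact p of 0.0223. With shared sites limited to 20 to 100 reads in replicate 1, 0 of 242 member positions differed by Fisher's exact test after adjustment. With at least 30 reads in replicate 1, 3 of 118 differed. The share of all shared sites called under these depth limits was not computed, so these counts have no background beside them. The median depth of the 249 positions in replicate 1 was 29 reads, so a p above the threshold does not show equal levels. Reads count as independent in both tests, which set 1 library against the other.

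**Figure D5:**
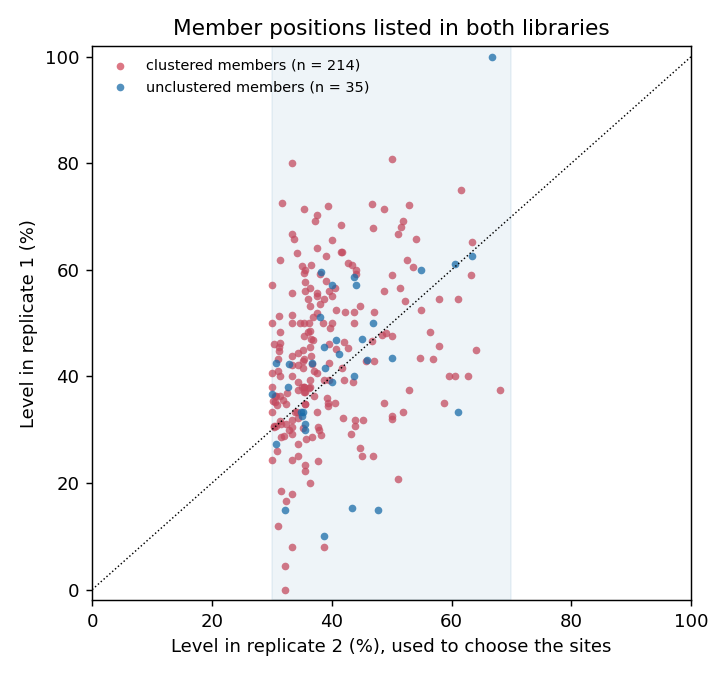
Percent of methylated reads in replicate 1 against replicate 2 at the 249 member positions listed in both libraries, clustered members in red and members standing alone in blue; the dotted line marks equal levels and the shading the 30% to 70% that chose the sites in replicate 2. In replicate 1, 205 of the 249 positions lie at 30% to 70%, 33 lie under 30% and 11 above 70%.

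The deepest of the member positions in replicate 1 show how single sites compared. Of the members on chromosome 3, 5 at positions 20612377 to 20612384, were at 33.7% to 42.7% of 71 to 89 reads in replicate 2 and at 50% to 65.8% of 119 to 161 reads in replicate 1. A member on chromosome 9 at position 116950589, which stands alone, was at 38.1% (28.5% to 48.6%) in replicate 2 and 59.6% (50.8% to 67.9%) in replicate 1. The member on chromosome 11 at position 110763412, which also stands alone and has a listed cytosine at +2, was at 35% in replicate 2 and 32.6% (24.8% to 41.2%) in replicate 1. Of 2 members on chromosome 1, at positions 130573356 and 130573368, the first was at 31.6% in replicate 2 and 18.5% in replicate 1, and the second at 42.0% and 46.4%. A member on chromosome 6, at position 130211703, was at 36.5% and 47.0%. The other members with 100 reads in replicate 2 lie 2 bp apart on chromosome 12, at positions 108116252 and 108116254, and were at 38% and 35% in replicate 2 and at 59.3% and 60.7% of 27 and 28 reads in replicate 1.

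The same rule applied to replicate 1 found 284 of 28291 CHH sites, or 1.004%. Of them 82.4% had another such site within 100 bp, 25.4% had a listed cytosine at +1 and 39.8% had one at +2, against 31.0% and 28.8% of all CHH sites of 30 to 100 reads in replicate 1. The near absence of a cytosine at +1 was thus found for the members of replicate 2 and not for the sites that the rule chose in replicate 1. These sets are unlike, since only 15.3% of the members of replicate 2 had another within 100 bp. Sites standing alone in replicate 1 were not examined apart. Of the 284, 229 were listed in replicate 2, at a pooled level of 33.3% in replicate 2 and 44.0% in replicate 1, and 125 of them were at 30% to 70% in replicate 2.

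Along the chromosomes, members were more frequent where CHG methylation was high. In 2376 regions of 1 Mb with at least 500 CHH sites of 30 to 100 reads, the share of members had a median of 0.165% and quartiles of 0.0781% and 0.299%, and 248 regions had no member. Over regions ordered into 5 groups of nearly equal size by CHG level, members made up 0.0642%, 0.129%, 0.178%, 0.231% and 0.418% of the CHH sites of the same depth, from the lowest to the highest CHG level. Across regions, Spearman's rho between the share of members and the CHG level was 0.65, and 0.63 for members standing alone. With the CpG level it was 0.13. Both values of a region come from the same library and share its depth and base composition. The highest share was in 136000001 to 137000000 of chromosome 5, with 12 members of 657 sites (1.83%, 0.947% to 3.17%) and a CHG level of 2.24%. Next came 166000001 to 167000000 of chromosome 2 (9 of 605 sites, 1.49%), 179000001 to 180000000 of chromosome 2 (19 of 1302, 1.46%), 117000001 to 118000000 of chromosome 8 (17 of 1284, 1.32%) and 103000001 to 104000000 of chromosome 13 (27 of 2115, 1.28%). In that order, their CHG levels were 1.47%, 0.834%, 1.62% and 1.31%. Clustered members made up much of some of the member counts: 3 of the 9, 9 of the 19, 11 of the 17 and 22 of the 27 stood alone, as did 7 of the 12 on chromosome 5.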

How the data were processed

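Bismark 0.7.5 and the build mm9 are named in the submitters' processing notes, while how reads were trimmed or filtered is not given in the sources used here. Per the labels' protocols, sheared DNA with added unmethylated lambda DNA was converted and amplified, and lambda reads were not analysed here. The authors deposited 6 tables, 1 per library and context, with counts, for each cytosine of 1 strand class, of its methylated and unmethylated reads and their total, and the percent of methylated reads that they computed from those counts. From these, members were selected, clustered at gaps of up to 100 bp, and compared with autosomal CHH sites of 30 to 100 reads, with Python 3.11.15, numpy 2.4.6, scipy 1.17.1 and numba 0.67.0. Levels are read-weighted. Coordinates are 1-based, in mm9. The counting and both tests were checked on simulated data. Named sites are the 5 clusters with the most members, the 5 regions of 1 Mb with the highest share, the 10 members with the most reads in replicate 1 and the 3 with the most in replicate 2. The members, lists and rules were chosen with earlier results of these data known. The split by cluster size was made after the data were seen.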

Additional observations from a re-analysis of the deposited data

How the results depend on the processing

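Depth limits the choice of members: at 30 reads a level of 30% rests on 9 methylated reads, and p-values and intervals cover counting error only. No paired analysis was possible because both libraries belong to 1 group. The number of members was 35545 with a level band of 20% to 80%, 4324 with 40% to 60%, 694 with 40 to 100 reads and 284 with the rule applied to replicate 1, without replicate 2. The share with another member nearby was 14.1% within 50 bp, 18.1% within 1000 bp, 30.7% for 40 to 100 reads and 82.4% without replicate 2. A cytosine at +1 was listed for 6.63% of members with 40 to 100 reads, 0.534% with 1 member per cluster, 0.360% with no other member within 100 bp and 25.4% without replicate 2. A cytosine at +2 was listed for 56.8% with 40 to 100 reads and 39.8% without replicate 2. Levels of CpG, CHG and CHH neighbours were 78.5%, 2.05% and 2.13% with neighbours of 40 to 100 reads, 87.1%, 2.01% and 2.02% within 50 bp, 84.8%, 1.60% and 1.64% within 500 bp, 85.4%, 2.25% and 2.26% with each pair counted, and 66.05%, 5.35% and 3.84% without replicate 2. As means of site levels the CpG and CHH values were 86.8% and 1.83%, with no other member within 1000 bp the CHG and CHH values were 1.66% and 1.67%, CpG was 85.7% with no upper depth limit, CHG was 1.65% from 20 reads, and CHH was 2.58% with members kept. The level of neighbours followed by a listed cytosine was 0.721% within 50 bp, 0.602% within 500 bp, 0.916% with members kept, 0.478% with no other member within 1000 bp, 0.475% with none within 100 bp, 1.54% with neighbours of 40 to 100 reads, 0.743% with both of these, 0.721% with no upper depth limit, 0.619% as a mean of site levels and 3.73% without replicate 2. In each of 36 comparisons of neighbour levels, over 9 settings, the level was higher around members than around all sites of the same depth. Not all of these are separate checks. With members kept, CpG and CHG levels cannot change, since only CHH sites are members, and the CHH table starts at 30 reads anyway. With members kept, the CHH and followed levels are raised by the rule itself. Of member positions in replicate 1, 118 of 118 were called with at least 30 reads and 34 of 35 with no other member within 100 bp, by construction on fewer sites. Between the libraries, 3 of 118 positions differed with at least 30 reads in replicate 1, and 0 of 242 with 20 to 100 reads. For these limits on depth in replicate 1, the share of all sites called by either test was not computed. The alternatives with no other member within 100 bp, and those of the followed neighbours on depth and on site means, were chosen after seeing the data, and the cause of changes not given here was not tested.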

Other observations

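The 338 autosomal CHH sites of 30 to 100 reads in replicate 2 that lay above 70% were outside the rule. Of these, 1 had a listed cytosine at +1 (0.296%), and 75.1% had one at +2. A member lay within 100 bp of 31.4% of them, against 1.71% of all CHH sites of the same depth. Their CHG neighbours within 100 bp were at 2.89% and their CpG neighbours at 87.9%, with each pair of a site and a neighbour counted, against 0.778% and 79.3% around all sites. Only 3 of them were listed in replicate 1, at a pooled level of 60.9%.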
